A study of Arabidopsis thaliana with 18 samples.

Results

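The small RNAs bound to ARGONAUTE1 (AGO1) in Arabidopsis seedlings were compared between plants that had recovered from heat stress (HS) and plants that were never heated. Of the 18 libraries of the series, 6 were compared, namely AGO1 immunoprecipitates (AGO1-IP) of 3 control and 3 recovery replicates, chosen by their labels. All 6 came from pools of 7-day-old seedlings of genotype Col-0, the common laboratory accession, and AGO1 was captured with an antibody to the plant's own protein. Recovery seedlings were heated (HS, 1 h at 37°C) and then kept for 2 h at 22°C, and control seedlings were not heated. A further 3 AGO1-IP libraries of seedlings at the end of HS are quoted beside some results. They also entered the statistical fits, and so their filter, scaling and estimate of spread. Another 6 total RNA libraries of control and recovery seedlings are set beside some of the results. A test of loading used all 18 libraries, the 3 of total RNA at the end of HS included. Since whole seedlings were used, fewer cells that hold a small RNA and fewer copies per cell cannot be told apart, and an AGO1-IP library gives the makeup of the bound pool, not its amount.

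In plants, DICER-LIKE1 cuts most miRNAs from hairpin precursors as short duplexes. AGO1 takes up the duplex, and the guide strand is kept to direct cleavage or translational repression of target mRNAs. The passenger strand, or star strand, is discarded. AGO1 prefers guides that begin with uridine (U). A trans-acting siRNA (tasiRNA) arises when a miRNA cuts a TAS transcript, which is then copied into double-stranded RNA and diced in steps of 21 nt from the cut, and many tasiRNAs are also loaded into AGO1.

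Sequences are given first for the miRNA rows on which the comparison turned, and they were read from the RefSeq TAIR10.1 assembly at the annotated positions. Each is written 5′ to 3′ with the seed (bases 2 to 8) in capitals. The first set holds the 4 rows with the smallest p among those lower in recovery, all of them passenger strands, each followed by the guide of its hairpin.
miR159b-5p: gAGCUCCUugaaguucaaugg
miR159b-3p: uUUGGAUUgaagggagcucuu
miR164b-3p: cAUGUGCCcaucuucaccauc
miR164b-5p: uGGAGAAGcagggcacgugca
miR167a-3p: gAUCAUGUucgcaguuucacc
miR167a-5p: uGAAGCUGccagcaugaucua
miR157c-3p: gCUCUCUAuacuucugucacc
miR157c-5p: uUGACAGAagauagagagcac
None of these passenger strands begins with U, whereas all 4 guides do. The next set holds the 4 rows with the smallest p among those higher in recovery (miR8175, miR156g, miR156h and miR157d), with the common miR156 and miR157 guides for comparison.
miR156a-5p: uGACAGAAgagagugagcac
miR156g: cGACAGAAgagagugagcac
miR156h: uGACAGAAgaaagagagcac
miR157a-5p: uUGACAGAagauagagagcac
miR157d: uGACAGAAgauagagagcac
miR8175: gAUCCCCGgcaacggcgcca
The miR156 guides and miR157d share the seed GACAGAA, and miR156g differs from miR156a-5p by U1C alone (base of miR156a-5p, position from 1 at the 5′ end, base of miR156g). miR157d equals miR157a-5p without its first base, so that its seed is shifted by 1. The 20 nt of miR8175 equal the 3′ ends of 22 of 672 annotated tRNA genes followed by CCA, the ending added to mature tRNAs.

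The files list 422 mature miRNA rows, of which 121 share their sequence with another row, and 6242 positions in 7 TAS loci. AGO1-IP libraries held 5745126, 3271254 and 3183199 miRNA reads in control replicates 1 to 3 and 2104419, 4605758 and 2520881 in recovery replicates 1 to 3, beside 383351, 254240 and 150853 and 104000, 277850 and 143294 TAS reads. In these 6 libraries, between 97.5% and 98.9% of miRNA reads came from mature sequences that begin with U, against 84.2% to 89.0% in the 6 total RNA libraries. Passenger strands made up 0.716% to 1.04% of miRNA reads in AGO1-IP and 8.87% to 12.3% in total RNA.

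Recovery replicate 1 stood apart from the other 5 libraries. Over the 215 miRNA rows with enough reads to be tested, the median absolute log2 difference between this library and each other library was 0.86 to 0.97, whereas it was 0.34 to 0.46 for all pairs without it, control against recovery included. Along the first principal component, with 55.4% of the variance, the libraries lay apart in the same way, with recovery replicate 1 at 15.1 and the other 5 libraries between -5.06 and -2.15. Results are therefore given for each library and also without this library, and the reason for its difference was not tested.

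The first question was which miRNAs made up a different proportion of the AGO1-bound miRNA reads 2 h after HS than without HS. Levels are RPM, reads per 1000000 miRNA reads, after TMM scaling, a correction for differences in library makeup, and differences are log2 recovery minus control with their standard error (SE) from edgeR's quasi-likelihood fit. Rows of identical sequence share their reads in ways the sources used here do not state. Counts of rows and medians of lists count such copies separately, so they are not counts of separate measurements. Unless another tool or setting is named, a row was called from this fit at a Benjamini-Hochberg adjusted p under 0.05. The fit included the 3 HS libraries, and a fit without them called more rows, as given at the end. Of 215 rows tested, 1 was called lower (0.465%) and 0 were called higher (0%), 8 were below 0.05 before adjustment, and DESeq2 made 5 calls (2 lower and 3 higher). The remaining 207 rows held at most 9 reads per library on average and 0.00846% of all miRNA reads of the 6 libraries, and 48 of them had no read in any of these libraries. The median SE was 0.45 on the log2 scale, so changes of this size were not detectable in a typical row. Larger differences were not called either, such as 2.46 for miR8175 (SE 0.65) and -1.05 for miR167a-3p (SE 0.29). A row that was not called may therefore still differ by more than 1 SE.

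The row called was miR159b-5p, the passenger strand of the MIR159b hairpin (chr1:6220650-6220670, plus strand, in no other annotated gene). Its level was 117, 141 and 139.9 RPM in control replicates 1 to 3, 0.793, 3.50 and 2.00 at the end of HS and 6.52, 3.78 and 9.97 in recovery replicates 1 to 3. All 3 recovery libraries lay far below all 3 control libraries, and recovery replicate 1 lay between the other 2. The means were 133 ± 13.4 and 6.76 ± 3.10 RPM (SD, n = 3), a 19.9-fold lower level with a log2 difference of -4.32 (SE 0.55, edgeR adjusted p = 0.000458). These levels rested on 712, 405 and 466 reads in control and 17, 17 and 25 reads in recovery libraries. Without recovery replicate 1 the log2 difference was -4.16 (edgeR adjusted p = 0.000924).

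Over all 215 rows, 72 had a log2 difference above 0 and 143 below, with a median of -0.20. With DESeq2's size factors in place of TMM the median was 0.01, so differences of this size cannot be told apart from the choice of scaling, and the median of each list below is given under both. Groups did not overlap for 17 rows lower in recovery (7.91%) and 3 rows higher (1.4%), the 3 being miR156h, miR157d and miR823. Without recovery replicate 1, edgeR called 1 of 226 rows (0.442%), again miR159b-5p, and 80 of the 215 rows changed sign.

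The guide of the same hairpin, miR159b-3p, represses GAMYB-like transcription factor mRNAs such as MYB33 and MYB65. It stood at 17717, 24808 and 12114 RPM in control and 24259, 15957 and 16282 in recovery libraries, with overlapping groups and a log2 difference of 0.05 (SE 0.38, edgeR adjusted p = 0.970). Of the reads of both arms, the passenger strand took 0.659, 0.567 and 1.14% in control and 0.0269, 0.0237 and 0.0612% in recovery libraries. In total RNA, miR159b-5p had 239, 102 and 210.4 RPM, here without a scaling factor, in control and 62.6, 28.0 and 26.5 in recovery libraries, which did not overlap either.

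Among the other 35 passenger strands tested, edgeR called none and DESeq2 called miR164b-3p, and 3 had an unadjusted p under 0.05, all lower in recovery. For miR164b-3p (chr5:287716-287736, plus strand), whose guide limits the CUC genes of organ boundaries, the levels were 9.57, 5.24 and 15.6 RPM in control and 0.383, 1.33 and 1.60 in recovery libraries. The groups did not overlap, but the values rested on 58, 15 and 52 against 1, 6 and 4 reads, and the log2 difference of -3.14 (SE 0.80) had an edgeR adjusted p of 0.135 and a DESeq2 adjusted p of 0.0123. Without recovery replicate 1 it was -2.58 (edgeR adjusted p = 0.359). With the HS libraries left out of the fit it was -3.06 (edgeR adjusted p = 0.00367).

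The passenger strand of MIR167a, miR167a-3p (chr3:8108172-8108192, plus strand), had 1089.7, 1103 and 1385 RPM in control, 264, 235 and 273 in HS and 729, 492 and 503 in recovery libraries. Every recovery library was thus below every control library and above every HS library. The log2 difference between recovery and control was -1.05 (SE 0.29, edgeR adjusted p = 0.135), and -1.05 without recovery replicate 1. Its guide, miR167a-5p, targets the auxin response factors ARF6 and ARF8. It had 28275, 28936 and 31747 in control, 9754, 34644 and 37776 in HS and 8192, 20658 and 29369.8 in recovery libraries. HS replicate 1 and recovery replicate 1 were far below the rest.

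For miR157c-3p (chr3:6244527-6244547, minus strand), levels of 717, 991 and 508 RPM in control, 93.6, 80.8 and 84.6 in HS and 663, 264 and 329.9 in recovery libraries were found, with recovery replicate 1 inside the control range. The log2 difference was -0.82 (SE 0.37, edgeR adjusted p = 0.906), and -1.12 without recovery replicate 1. The guide miR157c-5p stood at 36112, 59640 and 44112 in control and 54490.5, 54084 and 52951 in recovery libraries. HS and recovery were both set against the same control libraries, so their values are placed side by side and not tested for likeness.

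**Figure D1:**
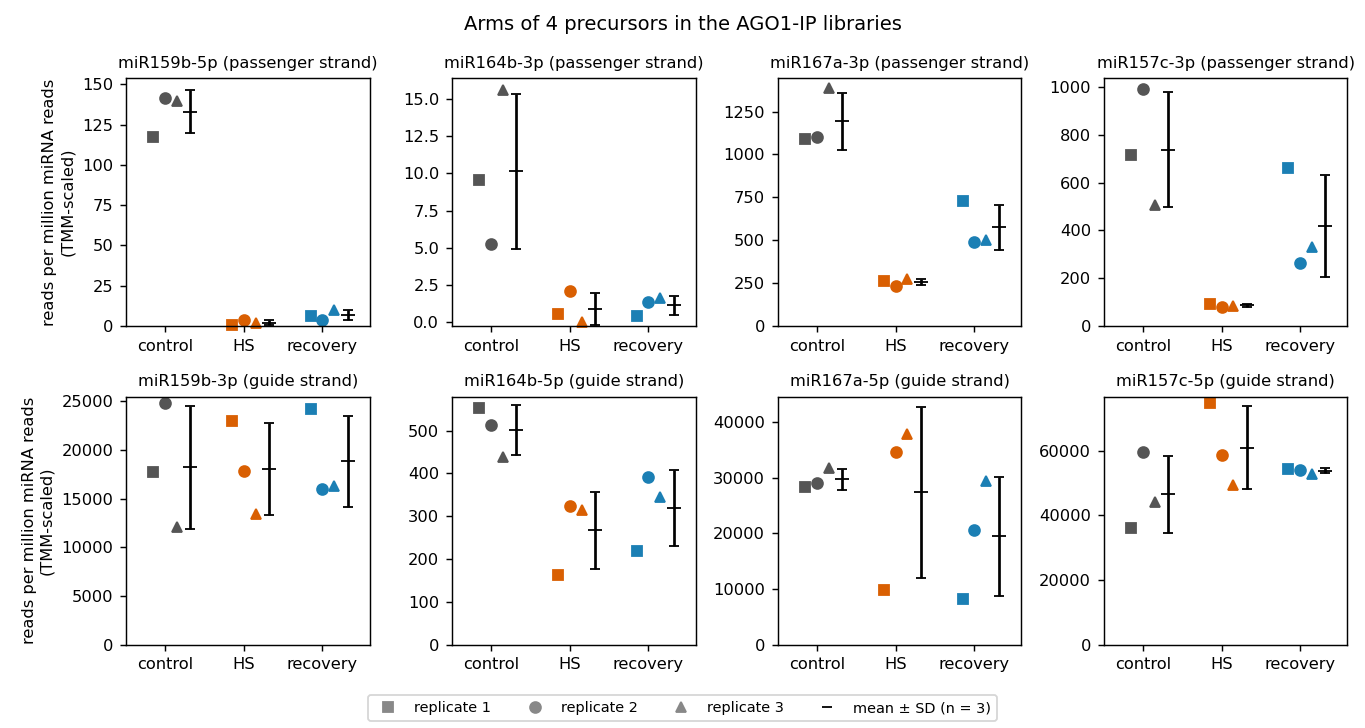
RPM (reads per 1000000 miRNA reads, TMM-scaled, vertical axis, a separate linear scale in each panel) of 4 passenger strands (top) and the guides of the same hairpins (bottom) in control, HS and recovery AGO1-IP libraries, with 1 marker shape per replicate and the mean ± SD (n = 3) in black. The 3 recovery values of miR159b-5p, between 3.78 and 9.97, sit far below the control values, and those of its guide overlap the control values.

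Passenger strands as a group were not uniformly lower. The list goes by name, and some of its strands took most reads of their hairpin in control AGO1-IP libraries. Their mean shares of both arms were 71.4% for miR171b-5p, 65.4% for miR171c-5p, 63.4% for miR393b-3p, 64.2% for miR408-5p and 94.9% for miR2111b-3p. Of 52 on the list 36 were tested, edgeR called 1 lower and 0 higher (DESeq2 called 2 lower), 26 had a log2 difference below 0, and their median was -0.28 with TMM and -0.01 with DESeq2's size factors, beside -0.20 and 0.01 over all 215 rows. Without recovery replicate 1 and with TMM, the median was -0.15 for passenger strands and 0.03 for all rows. Their summed share was 1.04, 1.02 and 1.00% of miRNA reads in control and 1.01, 0.716 and 0.805% in recovery libraries. Recovery replicate 1 lay within the control range and the other 2 below it (exact two-sided permutation test, p = 0.2, the smallest possible being 0.1). The passenger share of both arms was also taken for 36 hairpins with both arms listed and a mean of at least 10 passenger reads. It was lower in all recovery than in all control libraries for 3 (miR159b, miR164b and miR166b), higher for 1 (miR167c), and overlapping for 32. Both arms of miR166b have the same sequences as those of miR166a, whose groups overlapped, so miR166b cannot be set apart from miR166a.

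In recovery replicate 1, miR162a-5p was far above the other 5 libraries. For this row, the passenger strand opposite the guide that targets DICER-LIKE1, levels were 14.0, 8.03 and 6.90 RPM in control and 64.4, 7.56 and 8.38 in recovery libraries. The log2 difference of 1.45 thus rested on 1 library and was -0.09 without it (edgeR adjusted p = 0.906 and 0.990). The passenger share of MIR171a reads was 1.31, 0.790 and 2.29% in control, 6.04, 1.05 and 3.18% in HS and 8.75, 0.877 and 2.38% in recovery libraries. It was thus high in HS replicate 1 as well, and the guide miR171a-3p was low in recovery replicate 1, at 756 RPM.

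The miR156 and miR157 guides, which hold back the SPL transcription factors and with them the change to adult growth, formed the largest group of AGO1-bound reads. Together the 14 rows took 53.9, 54.8 and 55.5% of miRNA reads in control and 39.0, 62.7 and 59.0% in recovery libraries. Recovery replicate 1 was the lowest of all 6 and the other 2 recovery libraries were the highest. None of the 14 was called by edgeR. Of these, 7 had a log2 difference above 0 (median -0.01 with TMM and 0.20 with DESeq2's size factors), and all 14 did without recovery replicate 1 (median 0.41). Of the 14 rows, 6 hold the miR156a-5p sequence and 3 the miR157a-5p sequence, so they are not separate measurements. The common guide miR156a-5p had 66140, 74648 and 65274 RPM in control and 23435, 78892 and 70833 in recovery libraries, a log2 difference of -0.25 (SE 0.41) that turned to 0.35 without recovery replicate 1.

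The rows miR156g, miR156h and miR157d were higher in recovery replicate 1 than in the other recovery libraries, whereas miR156i and miR156j were lower, as the common guide was. For miR156g (chr2:8412589-8412608, minus strand, in an intron of AT2G19420 on the opposite strand), levels were 927, 1118 and 799 RPM in control and 6879.9, 1061 and 2231 in recovery libraries, so that replicate 1 was far above, replicate 3 above and replicate 2 inside the control range. The log2 difference was 1.84 (SE 0.56, edgeR adjusted p = 0.230), and 0.94 without recovery replicate 1 (edgeR adjusted p = 0.429). DESeq2 called it with an adjusted p of 0.0123, as did edgeR with the HS libraries left out of the fit (adjusted p = 0.00611). Per 100 reads of miR156g and the 6 rows with the common miR156 sequence, miR156g took 0.232, 0.252 and 0.202 in control and 4.73, 0.223 and 0.517 in recovery libraries.

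For miR157d (chr1:18026989-18027008, minus strand), levels were 1053, 1304 and 1114 RPM in control and 5642, 1329 and 1545 in recovery libraries. The groups did not overlap, although recovery replicate 2 exceeded the highest control by little. The log2 difference was 1.29 (SE 0.50, edgeR adjusted p = 0.671), and 0.51 without recovery replicate 1. For miR156h (chr5:22597087-22597106, minus strand), levels were 17.7, 32.1 and 23.7 in control and 99.7, 38.2 and 46.7 in recovery libraries, also without overlap, with a log2 difference of 1.33 (SE 0.47, edgeR adjusted p = 0.496) and 1.00 without that library. DESeq2 called miR156h as well, with an adjusted p of 0.0353.

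The row with the largest positive difference was miR8175 (chr2:3740938-3740957, plus strand), the sequence found at tRNA gene ends. It had 30.2, 14.3 and 13.5 RPM in control and 195, 22.0 and 106 in recovery libraries, with replicates 1 and 3 above all controls and replicate 2 inside their range. The log2 difference was 2.46 (SE 0.65, edgeR adjusted p = 0.135), and 1.80 (edgeR adjusted p = 0.262) without recovery replicate 1. DESeq2 called it, with an adjusted p of 0.0011, as did edgeR with the HS libraries left out of the fit (adjusted p = 0.000305). In total RNA it was far more abundant, at 2325, 1719.9 and 3226 RPM in control and 5414, 2051 and 5398 in recovery libraries, and reads of this row cannot be told apart from tRNA ends by sequence.

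**Figure D2:**
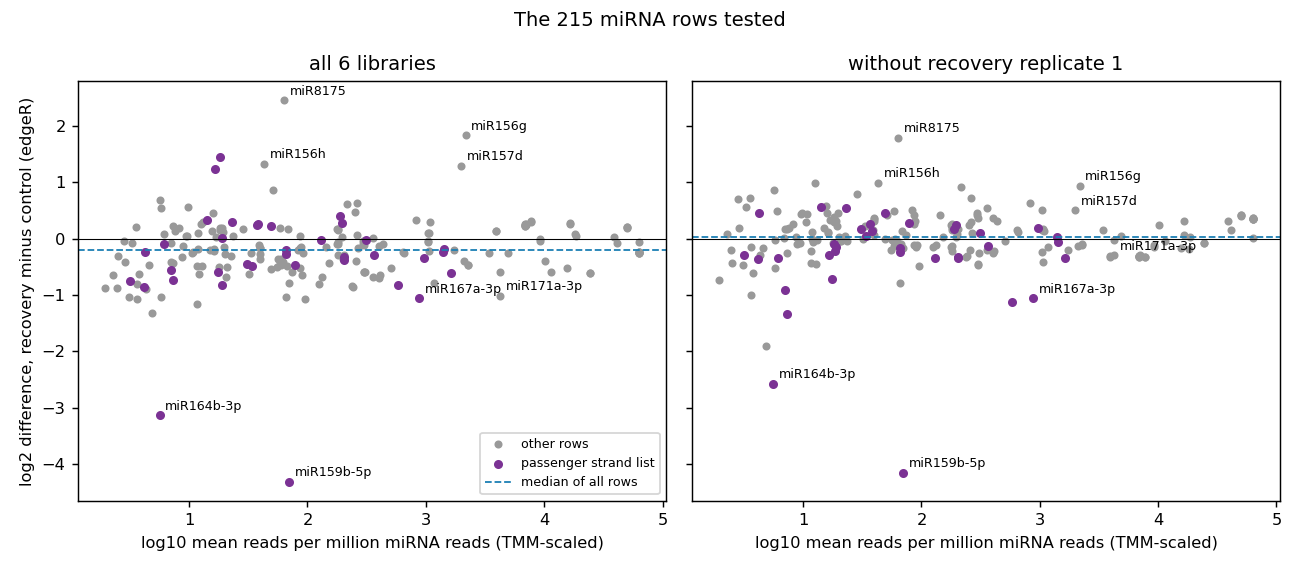
Log2 difference, recovery minus control (edgeR, vertical axis), against log10 mean RPM over both groups (horizontal axis) for the 215 miRNA rows tested, with all 6 libraries (left) and without recovery replicate 1 (right), passenger strands in purple and the median of all rows as a dashed line. miR159b-5p stays near -4 in both panels, and the positive values of miR156g and miR157d shrink from 1.84 and 1.29 to 0.94 and 0.51.

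Guides against the silencing machinery itself were next in order. These are miR162, which targets DICER-LIKE1, miR168, which targets AGO1 mRNA, and miR403, which targets AGO2. None of the 5 rows was called, all 5 had a log2 difference below 0 (median -0.47 with TMM and -0.25 with DESeq2's size factors), and the median was -0.11 without recovery replicate 1. The 2 miR162 rows share 1 sequence, and so do the 2 miR168 rows. For miR168a-5p, levels were 8545, 8801 and 10424 RPM in control and 12301, 6376 and 8421 in recovery libraries, with recovery replicate 1 the highest and replicate 2 the lowest of the 6 (log2 difference -0.04, SE 0.35, edgeR adjusted p = 0.973, and -0.14 without recovery replicate 1). For miR162a-3p, levels were 3112, 2492 and 2287 in control and 1419, 2046 and 2242 in recovery libraries, which did not overlap by a narrow margin, and the log2 difference of -0.47 (SE 0.32) became -0.09 without recovery replicate 1. For miR403-3p, 10102, 19689 and 11679 in control and 4331, 11226 and 12116 in recovery libraries were found, and only recovery replicate 1 was below the control range.

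Among auxin-related guides, 0 of 9 rows were called. miR160 (ARF10, ARF16 and ARF17), miR167 (ARF6 and ARF8) and miR393 (the TIR1 and AFB auxin receptors) together took 7.22, 6.03 and 7.88% of miRNA reads in control and 2.75, 4.98 and 6.96% in recovery libraries, recovery replicates 1 and 2 being below the control range. All 9 rows had log2 differences below 0 with all libraries (median -0.17 with TMM and 0.02 with DESeq2's size factors), whereas 6 of 9 were above 0 without recovery replicate 1 (median 0.26). The direction of this list therefore depended on that library and on the scaling.

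The miR165 and miR166 guides, which restrict the HD-ZIP III factors of leaf polarity and vascular tissue, also changed direction with it. They took 5.41, 4.79 and 7.18% of miRNA reads in control and 15.6, 3.33 and 4.84% in recovery libraries. All 9 rows were above 0 with all libraries (median 0.25 with TMM and 0.58 with DESeq2's size factors) and all 9 below 0 without recovery replicate 1 (median -0.31), and none was called. Of these 9 rows, 7 hold 1 and the same miR166 sequence and 2 the same miR165 sequence, so they are not separate measurements. In miR166a-3p, recovery replicate 1 was the highest and replicate 2 the lowest of the 6 libraries, with 5495, 6172 and 7557 RPM in control and 13310, 3778 and 5309 in recovery libraries.

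The miR159 and miR319 guides, of which miR319 targets TCP factors of leaf growth, took 9.20, 11.1 and 6.91% of miRNA reads in control and 14.5, 7.66 and 8.04% in recovery libraries. None of the 6 rows was called (median log2 difference -0.00 with TMM and 0.30 with DESeq2's size factors, and -0.22 without recovery replicate 1). The dominant row, miR159a, had a log2 difference of -0.05 (SE 0.35), and miR319a one of 0.14 (SE 0.47), the first of them turning to 0.24 with DESeq2's size factors and the other to -0.32 without recovery replicate 1.

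Of 28 guides of growth and organ identity (miR164, miR169, miR170, miR171, miR172 and miR396) 24 were tested, none was called, and 21 had a log2 difference below 0, with a median of -0.45 with TMM and -0.29 with DESeq2's size factors, and -0.06 without recovery replicate 1. The 7 rows miR169h to miR169n share 1 sequence, and other rows of the list are copies too. Within this list, miR164a, with the same sequence as miR164b-5p, had 532, 513 and 443 RPM in control and 202, 369 and 344 in recovery libraries. All recovery values were below all control values, and the log2 difference was -0.70 (SE 0.34, edgeR adjusted p = 0.906), and -0.26 without recovery replicate 1. For miR171a-3p, which targets HAM-type GRAS factors of the meristem, 5333, 8902 and 2862 RPM were found in control and 756, 4999 and 2716 in recovery libraries. Its log2 difference of -1.01 (SE 0.67) was -0.29 in the absence of recovery replicate 1. A related guide, miR171b-3p, had 144, 183 and 148 in control and 26.8, 131 and 113 in recovery libraries (log2 difference -0.81, SE 0.52, edgeR adjusted p = 0.906, and -0.15 without recovery replicate 1). miR396a-5p, which restrains GRF growth factors, had a log2 difference of 0.27 (SE 0.39), miR172a, against AP2-type floral repressors, one of -0.22 (SE 0.40), and miR169a-5p, against NF-YA subunits, one of -0.48 (SE 0.53). Without recovery replicate 1 these 3 differences were 0.07, 0.12 and -0.45.

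Guides tied to nutrients and to other targets were not called either. Of 7 copper-responsive guides, 6 were below 0 (median -0.26 with TMM and -0.05 with DESeq2's size factors), and 5 were above 0 without recovery replicate 1 (median 0.12). For miR398b-3p, against copper/zinc superoxide dismutases, levels were 773, 544 and 777 RPM in control and 437, 675 and 677 in recovery libraries (log2 difference -0.23, SE 0.32, and 0.16 without recovery replicate 1). Of 15 sulfate and phosphate guides 11 were tested, 8 of them below 0 (median -0.09 with TMM and 0.20 with DESeq2's size factors, and -0.17 without recovery replicate 1). The 5 guides against pentatricopeptide repeat genes had a median of -0.25 with TMM and -0.01 with DESeq2's size factors, and 0.15 without recovery replicate 1. Among them, miR161.1 had 41006, 35467 and 38804 RPM in control and 34758, 42441 and 39929 in recovery libraries, a narrow range that included recovery replicate 1. Of 144 rows with high registry numbers, 26 had enough reads to be tested, of which edgeR called none and DESeq2 called miR8175, with 14 above 0 (median 0.03 with TMM and 0.28 with DESeq2's size factors), and together they took 0.108, 0.109 and 0.0859% of miRNA reads in control and 0.123, 0.0890 and 0.140% in recovery libraries. Outside the lists, miR394a, whose target LCR encodes an F-box protein of the shoot meristem, had 335, 283 and 319 in control and 64.4, 165 and 288 in recovery libraries (log2 difference -0.86, SE 0.49, and -0.30 without recovery replicate 1). miR823, which targets the DNA methyltransferase CMT3, had 211, 208 and 198 in control and 348, 221 and 386 in recovery libraries, without overlap, at a log2 difference of 0.63 (SE 0.30, edgeR adjusted p = 0.906) and 0.72 without that library.

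**Figure D3:**
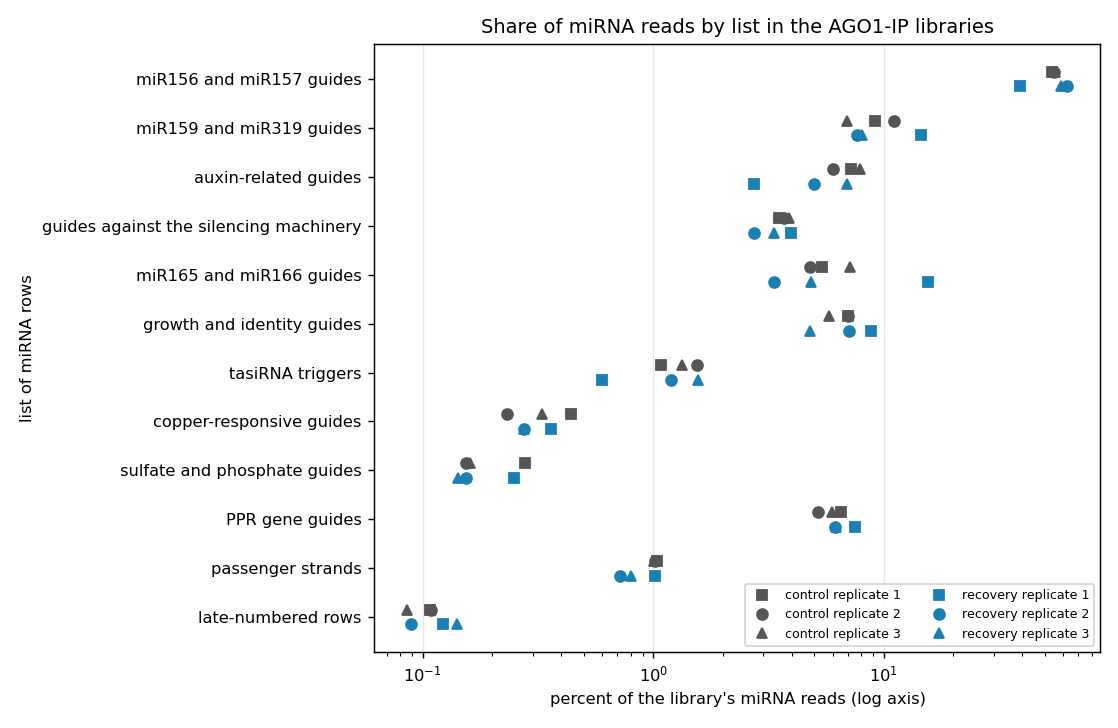
Share of miRNA reads (percent, log axis) taken by each of 12 lists of miRNA rows in the 3 control (grey) and 3 recovery (blue) AGO1-IP libraries, 1 marker shape per replicate. Recovery replicate 1 (blue squares) is at 39.0% for miR156 and miR157 and at 15.6% for miR165 and miR166, outside the range of the other 5 libraries in both.

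Recovery replicate 1 was compared with recovery replicates 2 and 3 as a description, with no test. Among 144 rows with at least 100 reads on average, 22 were at least 1 log2 unit higher and 46 at least 1 log2 unit lower in replicate 1 than in the mean of the other 2. Highest were miR156g (2.16), miR8175 (2.00), miR157d (1.98), miR165b (1.73) and miR165a-3p (1.72), and lowest were miR403-5p (-3.16), miR173-5p (-2.35), miR1888a (-2.32), miR847 (-2.28) and miR171a-3p (-2.28). HS replicate 1 was the lowest HS library for miR403-5p, miR173-5p, miR847 and miR171a-3p, but not for miR1888a. It was the highest for miR8175 (by little), miR157d, miR165b and miR165a-3p, but not for miR156g. Rows with the same sequence moved together, such as the 7 rows of miR166 at 1.57 to 1.63. By length, 20-nt sequences took 42.7, 39.4 and 41.8% of miRNA reads in control and 19.1, 47.0 and 43.5% in recovery libraries, with replicate 1 far below every other library. Sequences beginning with C took 0.292, 0.232 and 0.253% and 1.08, 0.240 and 0.378%. In recovery replicate 1 most of them were miR156g, with 17940 of 2104419 miRNA reads. The share beginning with U was 98.4, 98.6 and 98.5% in control and 97.5, 98.9 and 98.6% in recovery libraries (difference of means -0.19 percentage points, exact two-sided permutation test, p = 1, the smallest possible being 0.1), and the difference was 0.25 without recovery replicate 1.

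**Figure D4:**
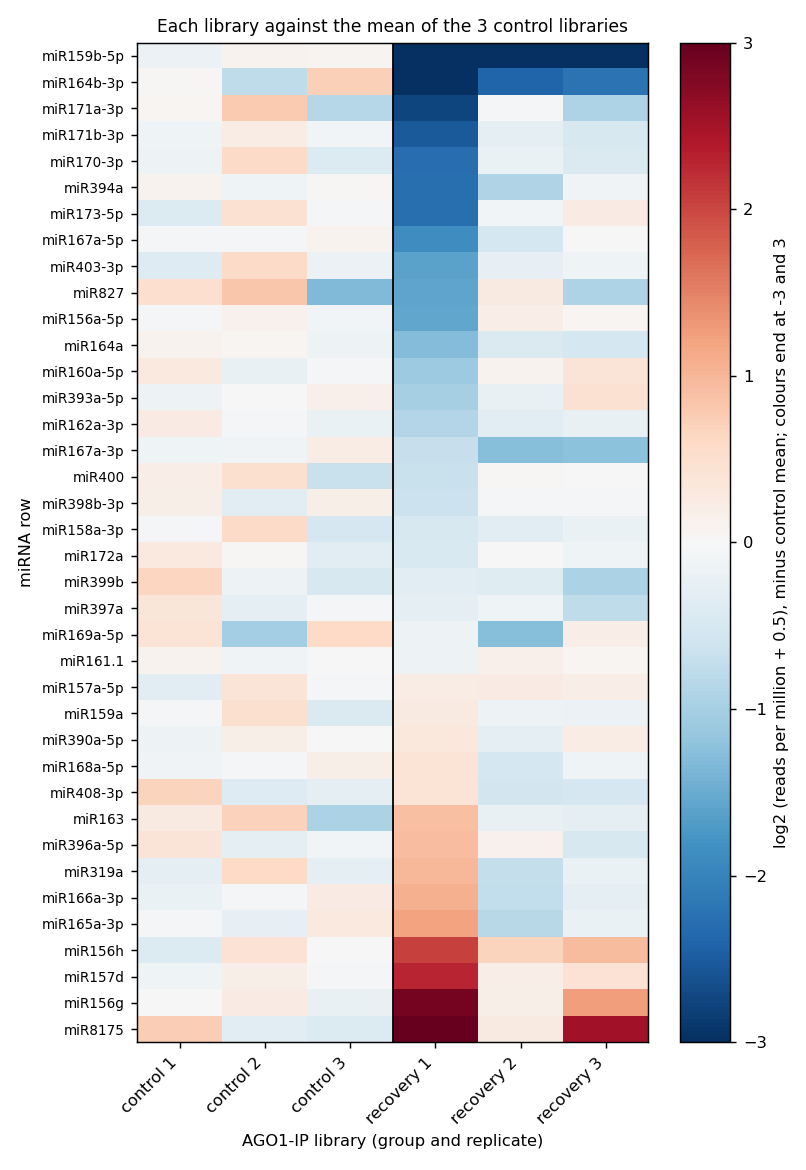
Log2 of (RPM + 0.5), minus the mean of the 3 control libraries (colour, ends at -3 and 3), for the 30 guides chosen by name and the other rows called under any setting, in 3 control and 3 recovery AGO1-IP libraries, sorted by recovery replicate 1. miR159b-5p is dark blue in all 3 recovery libraries, and miR164b-3p, with few reads, is blue in all 3 as well. miR8175 is high in recovery replicates 1 and 3. Other strong colours, such as miR171a-3p below and miR157d above, are in recovery replicate 1 alone.

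Rows were also summed by family and arm. Of 138 sums tested, 131 of miRNAs and 7 of TAS loci, edgeR called 1 (0.725%), miR159-5p. This sum holds the reads of miR159b-5p alone, the only row of its family on that arm, so its call is the row's call on another scale. It had 106, 106 and 146 reads per 1000000 miRNA and TAS reads in control and 8.43, 4.02 and 8.63 in recovery libraries, a log2 difference of -4.10 (SE 0.49, edgeR adjusted p = 4.88e-05), and -4.25 without recovery replicate 1. Sums were scaled on their own, so their levels are not to be set beside those of single rows. Next were miR8175-3p, again 1 row, at 2.80 (edgeR adjusted p = 0.0578) and miR164-3p at -2.93 (edgeR adjusted p = 0.0637), both of which DESeq2 called and which were 1.72 and -2.62 without recovery replicate 1. Among the sums with most reads, the log2 difference was -0.05 (SE 0.37) for miR156-5p, 0.51 (SE 0.33) for miR157-5p, 0.59 (SE 0.50) for miR166-3p and 0.51 (SE 0.46) for miR163-3p, a guide against methyltransferases of secondary metabolism. miR167-5p stood at -0.43 (SE 0.43), miR396-5p at 0.35 (SE 0.35), miR161-5p at 0.35 (SE 0.32), miR168-5p at 0.27 (SE 0.39), miR159-3p at 0.31 (SE 0.35) and miR822-5p at -0.36 (SE 0.33). With recovery replicate 1 left out, the difference was 0.26 for miR156-5p, 0.33 for miR157-5p, -0.42 for miR166-3p, -0.21 for miR163-3p and -0.16 for miR167-5p, and 0.04 for miR396-5p, 0.20 for miR161-5p, -0.24 for miR168-5p, -0.05 for miR159-3p and -0.27 for miR822-5p. The groups did not overlap for 2 sums lower (1.45%) and 7 sums higher (5.07%) in recovery.

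The second question was whether tasiRNAs stood in a different proportion to miRNAs among the AGO1-bound reads. TAS reads numbered 6.67, 7.77 and 4.74 per 100 miRNA reads in control and 4.94, 6.03 and 5.68 in recovery libraries. The recovery values all lay within the range of the controls, and the means were 6.39 ± 1.54 and 5.55 ± 0.557 (SD, n = 3, exact two-sided permutation test, p = 0.5, the smallest possible being 0.1). With recovery replicate 1 left out, the difference of means went from -0.842 to -0.536. Since both classes come from 1 library, a lower ratio could not be told apart from more miRNA reads.

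TAS1 and TAS2 transcripts are cut under the guidance of miR173 and give tasiRNAs against, among others, pentatricopeptide repeat genes, TAS3 is processed through miR390 and AGO7 and gives the tasiRNAs that target ARF2, ARF3 and ARF4, and TAS4 is cut by miR828 and targets MYB factors. The sense sequence with most control reads in 4 of the loci is given from RefSeq TAIR10.1, as the 21 nt from the listed position, with the first base in capitals.
TAS1c position 442: Uucuaaguucaacauaucgac
TAS1b position 479: Uucuaaguccaacauagcgua
TAS3a position 843: Uucuccuaccuugucuauccc
TAS4 position 888: Uugagcaagauguuggcauga
They lie at chr2:16537816-16537836, chr1:18549544-18549564, chr3:5862333-5862353 and chr3:9417798-9417818, on the minus strand except for TAS3a, inside the noncoding TAS genes. All 4 begin with U. In TAS2, the position with most control reads is 521 antisense, and its 21 nt begin with A. Those of TAS1a (569 sense) and TAS3b (337 sense) begin with U. The read length at a position is not given in the files, so 21 nt is an assumption.

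None of the 7 loci was called. Per 10000 miRNA reads, TAS2 had 311, 355 and 213 reads in control and 162, 276 and 239 in recovery libraries, the lowest being recovery replicate 1 (log2 difference -0.21, SE 0.32, edgeR adjusted p = 0.917, and -0.03 without that library). TAS1c had 201, 238 and 149 and 202, 186 and 181 (log2 difference 0.12, SE 0.30, and 0.05 without recovery replicate 1), with all recovery libraries inside the control range. TAS1a was at 87.1, 110.1 and 66.2 and 83.1, 83.2 and 89.0, TAS1b at 18.8, 22.9 and 13.6 and 15.2, 15.9 and 17.6. Both had recovery libraries closer to each other than the controls were. TAS3a had 36.7, 45.3 and 25.1 and 18.2, 36.1 and 35.9, and TAS4 12.1, 5.89 and 6.32 and 12.5, 5.31 and 5.64, so that replicate 1 was low for TAS3a and high for TAS4. The rare TAS3b had 0.306, 0.425 and 0.254 reads per 10000 in control and 0.912, 0.330 and 0.722 in recovery libraries, with a log2 difference of 1.14 (SE 0.41, edgeR adjusted p = 0.476) and 0.77 without recovery replicate 1. 

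Of 4 tasiRNA triggers listed 3 were tested, and none was called (median 0.10 with TMM and 0.35 with DESeq2's size factors). miR390a-5p had a log2 difference of 0.10 (SE 0.29), and 0.16 without recovery replicate 1. The trigger miR173-5p had 8455, 15378 and 10751 RPM in control and 2335, 10596 and 13328 in recovery libraries. Among the recovery libraries only replicate 1 was outside the control range, and the log2 difference of -0.40 (SE 0.60) became 0.25 without recovery replicate 1. At the end of HS the levels were 5770, 24428 and 17922 RPM in replicates 1 to 3, all outside the control range. TAS levels are given next for recovery replicate 1. In that library TAS2 was the lowest of the 6 per miRNA read, and TAS1a, TAS1b and TAS1c lay within the control range.

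Of the 6242 positions 749 were tested, relative to all TAS reads. edgeR called 0 (0%), as did DESeq2, and 24 had an unadjusted p under 0.05 in edgeR. Groups did not overlap at 30 positions lower and 30 higher in recovery (4.01% each). The 5 smallest p among higher positions belonged to TAS1c position 549 antisense, TAS3b position 221 antisense, TAS1b position 452 antisense, TAS1b position 492 sense and TAS2 position 645 sense, with log2 differences of 1.80, 2.33, 1.85, 1.68 and 1.42, the last being 0.94 without recovery replicate 1. Among lower positions they belonged to TAS1a position 461 antisense, TAS3a position 728 antisense, TAS1a position 582 antisense, TAS3a position 765 sense and TAS1a position 487 sense, with -1.51, -1.79, -2.25, -1.97 and -0.91. All 10 had adjusted p of 0.978 and few reads, as at TAS3b position 221 antisense with 19, 7 and 11 in control and 18, 6 and 96 in recovery libraries, where 1 library held most.

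Among the positions with most control reads of their locus, the groups did not overlap at TAS1b alone. At TAS1c position 442 sense, reads per 1000000 TAS reads after TMM scaling were 112968, 110364 and 94132 in control and 116240, 102022 and 69310.2 in recovery libraries (log2 difference -0.14, SE 0.30, and -0.31 without recovery replicate 1). At TAS1b position 479 sense they were 9546, 12028 and 10384.5 and 5187, 8374 and 7225, all lower in recovery but not called (edgeR adjusted p = 0.978). At TAS2 position 521 antisense they were 215039, 187685 and 161155 and 85680.2, 191736 and 104332 (log2 difference -0.56, SE 0.31, and -0.34 without recovery replicate 1). Recovery replicates 1 and 3 were below the controls there and replicate 2 was within them. The share of TAS2 reads on the antisense strand followed this position, at 80.3, 76.5 and 74.8% in control and 58.8, 77.6 and 63.2% in recovery libraries. Reads in the main 21-nt register of each locus were 60.7, 59.2 and 58.1% of TAS reads in control and 61.3, 59.6 and 57.4% in recovery libraries, with overlapping groups.

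**Figure D5:**
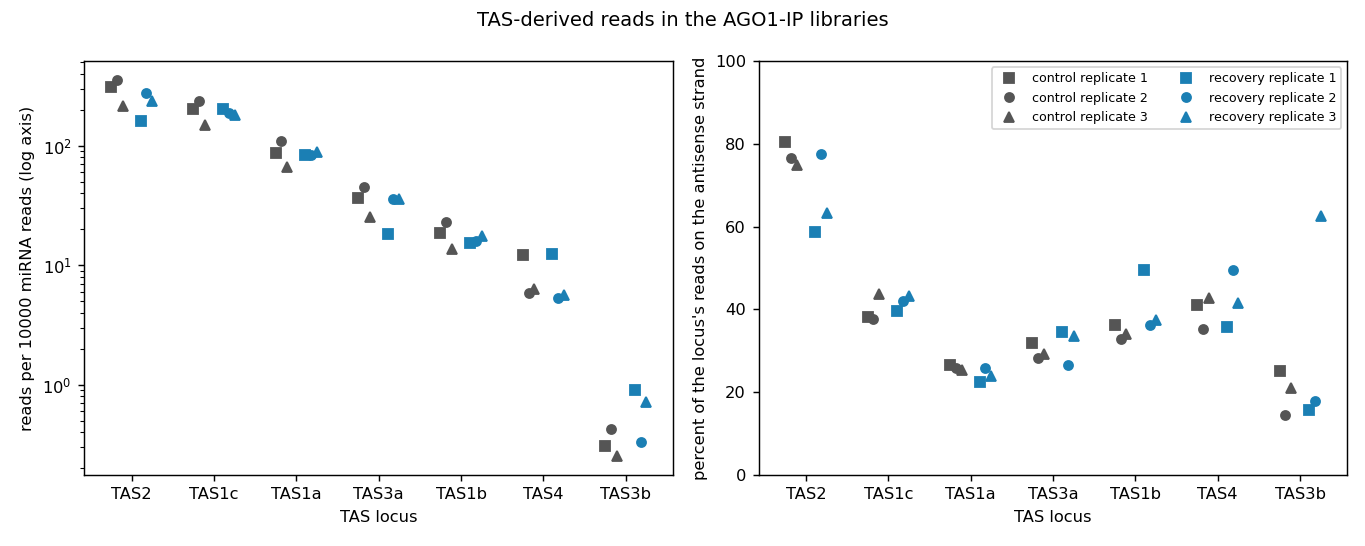
Left, reads of each TAS locus per 10000 miRNA reads (log axis), and right, percent of each locus's reads on the antisense strand, in 3 control (grey) and 3 recovery (blue) AGO1-IP libraries, 1 marker shape per replicate. The groups overlap at all 7 loci on the left, and the TAS2 antisense share of recovery replicates 1 and 3 lies below the controls at 58.8% and 63.2%.

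A last comparison set the AGO1-IP difference against that in total RNA, to see which miRNAs changed in loading. The interaction of fraction and condition was tested for 269 rows over all 18 libraries. The paper describes both fractions as coming from the same biological replicates, and this fit did not pair them. A fit with a replicate block called none either. edgeR called 0 (0%), 6 were below 0.05 before adjustment, and DESeq2 made 0 calls. For miR159b-5p the log2 difference in total RNA was -2.30 and the loading difference -2.06 (SE 0.90, edgeR adjusted p = 0.991). For miR156g, total RNA gave -0.24 and the loading difference was 1.80 (SE 0.74, edgeR adjusted p = 0.991), and for miR157d -0.05 and 1.10 (SE 0.51, edgeR adjusted p = 0.991). Without recovery replicate 1 the loading difference was -1.87 for miR159b-5p, 1.15 for miR156g and 0.52 for miR157d. The recovery libraries of miR159b-5p were thus below the control libraries in both fractions, and the difference in size between fractions did not pass the test.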

How the data were processed

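Small RNA libraries were made by the authors from total RNA and from AGO1 immunoprecipitates with the RealSeq v2 kit. The submitters' processing notes name cutadapt 2.9, Bowtie2 and the build TAIR10. How reads that match several loci were counted was not stated in the sources read. The deposited values were raw counts of reads per mature miRNA and per TAS position and strand (flag 0 was read as sense and 16 as antisense), and 0 columns were left unused.

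Counts were analysed with edgeR 4.0.16 in R 4.3.3: filterByExpr, TMM factors and a robust quasi-likelihood F-test over the 9 AGO1-IP libraries, contrast recovery minus control, with Benjamini-Hochberg adjustment over all rows tested and a threshold of 0.05. The loading test used all 18 libraries. Shares were compared with the exact permutation test. Rows were summed by family number and by arm, taken from the name or the position in the hairpin. The edgeR fit of recovery against control was tested on simulated counts with a fixed spread and no outlying library. The loading test, the replicate block and the permutation tests were not tested in this way. Alternatives were DESeq2 1.42.0, other scaling, other filters, identical sequences summed, fewer or more libraries, a replicate block and each library left out. The study describes biological replicates. Reads are PCR products and were not taken as independent molecules.

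The members and lists were chosen with earlier results of these data known. Names in the text were drawn from the rows called under any setting and their other arms, the 10 smallest p in each direction, 30 guides chosen by name, the 5 that set recovery replicate 1 most apart in each direction, for sums the 5 smallest p in each direction and the 12 with most reads, and for TAS all loci and the 5 smallest p in each direction among positions.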

Additional observations from a re-analysis of the deposited data

How the results depend on the processing

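For single miRNA rows, where edgeR called 1, DESeq2 called 5, testing with no filter called 6, a fit of only the 6 libraries compared called 4, and summing identical sequences called 2. DESeq2's size factors, a mean of at least 50 counts, library sizes with TAS reads and a fit of all 18 libraries each called 1. Leaving out each library in turn called 1 to 3, the 3 without recovery replicate 2 (miR159b-5p, miR156g and miR8175). For sums, DESeq2 called 3, no filter called 4, and leaving out each library called 1 to 2 (2 without recovery replicate 2). For TAS positions, leaving out each library called 0 to 1 (1 without recovery replicate 2, TAS3b position 221 antisense), and all other settings called 0. miR159b-5p was called under every setting run for single rows. The cause of the other changes was not tested. miR164b-3p, miR8175 and miR156g passed the threshold under DESeq2, no filter and the 6-library fit, miR156h under DESeq2 and no filter, and miR157d and the sum miR162-5p (1.72) under no filter alone.

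Of the 57 fitted differences printed, 40 kept their sign under every setting run and 17 changed it under at least 1, none of these with a call at the changed sign. Most lay near 0. DESeq2, its size factors, no filter and summing identical sequences gave miR159a 0.24, 0.24, 0.23 and 0.22, miR168a-5p 0.24, 0.24, 0.23 and 0.19, and miR172a 0.021, 0.022, 0.039 and 0.068. For miR159a and miR168a-5p, a mean of at least 50 counts gave 0.12 and 0.11, the 6-library fit 0.12 and 0.085, and library sizes with TAS reads 0.13 and 0.11. No filter gave miR398b-3p 0.015, the 18-library fit gave miR159b-3p -0.025 and miR319a -0.037, and the 6-library fit gave the sum miR156-5p 0.014. As each library was left out, ranges crossed 0 for miR156a-5p (-0.41 to 0.35), miR159a (-0.058 to 0.32), miR162a-5p (-0.094 to 2.27), miR168a-5p (-0.14 to 0.44), miR169a-5p (-0.83 to 0.070), miR172a (-0.21 to 0.12), miR173-5p (-0.67 to 0.25), miR319a (-0.32 to 0.77) and miR398b-3p (-0.33 to 0.16). The same held for the sums miR156-5p (-0.34 to 0.26), miR159-3p (-0.046 to 0.49), miR163-3p (-0.21 to 0.79), miR166-3p (-0.42 to 0.99), miR168-5p (-0.24 to 0.53) and TAS1c (-0.013 to 0.30), and for TAS1c position 442 sense (-0.31 to 0.036).

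The share of reads beginning with U was lower in recovery by the mean (-0.185 percentage points), ranged from -0.477 to 0.250 as each library was left out, and was 0.253 without miR156 and miR157 rows. The TAS ratio ranged from -1.67 to -0.153 and the passenger share from -0.262 to -0.113 as each library was left out.

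With a replicate block, edgeR called 7 rows (2 higher and 5 lower), 3 sums, 0 TAS positions and 0 loading changes. The numbers were not taken to pair the samples, since neither the labels nor the paper say that equal numbers mark paired control and recovery libraries. Whether they were paired was not tested. Deviations of control and recovery libraries with the same number correlated at 0.0998, 0.199 and 0.236 across rows. Each of the 3 recovery libraries correlated best with the control library of its own number, but control replicate 1 correlated best with recovery replicate 2 (0.116). The block also put miR167a-3p, miR171b-3p and miR394a past the threshold.

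Depth limited rare rows: the 207 rows not tested held at most 9 reads per library on average.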
